A study of Mus musculus with 20 samples.

Results

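The 6 genes described here are the Cyp4a fatty acid omega-hydroxylases of the mouse, *Cyp4a10*, *Cyp4a12a*, *Cyp4a12b*, *Cyp4a14*, *Cyp4a31* and *Cyp4a32*. They were taken by symbol from a count table of 50559 genes measured in 20 livers, and all 6 were found. The mice were homozygous for a floxed *Cideb* allele (the labels write cidebfl/fl) in every group, and *Cideb* codes for a protein of lipid droplets and of VLDL assembly. AAV-TBG-GFP was injected into the mice called WT here and AAV-TBG-Cre into those called KO, and the hepatocyte promoter TBG drives the Cre, so other liver cells keep the gene. Mice were fed either a Western diet (WD) or CDA-HFD, a choline-deficient, amino-acid-defined high fat diet, with 5 livers in each of the 4 combinations. The labels give 3 months for both diets, whereas the study's own text gives a longer feeding time for WD than for CDA-HFD, and the labels give no age. The study asked how deletion of *Cideb* protects the liver from fat accumulation, and Cyp4a genes are known readouts of fatty acid handling.

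Cyp4a enzymes are cytochrome P450s of the endoplasmic reticulum that hydroxylate the last (omega) carbon of fatty acids. The hydroxylated acid is then oxidized by alcohol and aldehyde dehydrogenases to a dicarboxylic acid, which is activated, carried into peroxisomes and shortened there. *Cyp4a10* and *Cyp4a14* are classical targets of PPARα, the nuclear receptor that fatty acids and fibrates activate in hepatocytes. *Cyp4a12a* is known for higher expression in male mice and for omega-hydroxylation of arachidonic acid, and *Cyp4a12b* is its near copy. *Cyp4a31* and *Cyp4a32* are close relatives of *Cyp4a10*.

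The members lie side by side on chromosome 4 (GRCm38, GENCODE M21). In order along the chromosome they are *Cyp4a12a* (chr4:115299046-115332815), *Cyp4a12b* (chr4:115411624-115439034), *Cyp4a14* (chr4:115486200-115496142), *Cyp4a10* (chr4:115518264-115533649), *Cyp4a31* (chr4:115563649-115579015) and *Cyp4a32* (chr4:115600969-115621602). *Cyp4a14* is on the minus strand and the other 5 are on the plus strand. To show how alike the copies are, the 30 coding bases of the heme-binding signature of P450 enzymes (F-x-x-G-x-x-x-C-x-G, found in the translated transcript) are given below, 5′ to 3′ on the coding strand. They are spliced from exons 11 and 12, so the coordinates span an intron, and the capitals mark the codon of the cysteine that holds the heme iron.
*Cyp4a10* (chr4:115529502-115532543): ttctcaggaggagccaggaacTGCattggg
*Cyp4a31* (chr4:115574950-115577948): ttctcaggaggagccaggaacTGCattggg
*Cyp4a32* (chr4:115614880-115621446): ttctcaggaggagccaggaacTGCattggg
*Cyp4a12a* (chr4:115328986-115331846): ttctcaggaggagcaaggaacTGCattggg
*Cyp4a12b* (chr4:115435240-115438069): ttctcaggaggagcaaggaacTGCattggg
*Cyp4a14* (chr4:115487299-115489805): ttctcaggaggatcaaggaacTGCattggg

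Counting positions from 1 at the 5′ end of these 30 bases, *Cyp4a12a* and *Cyp4a12b* differed from *Cyp4a10* by C15A, and *Cyp4a14* by G13T and C15A. *Cyp4a10*, *Cyp4a31* and *Cyp4a32* were identical over the stretch. The full coding sequences fell into the same 3 sets. *Cyp4a10* was 97.2% identical to *Cyp4a32* and 96.6% to *Cyp4a31*, *Cyp4a12a* was 98.5% identical to *Cyp4a12b*, and *Cyp4a14* was between 75.4% and 75.9% identical to each of the other 5.

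These copies limit what the counts can tell apart. The study's methods describe reads of 75 bases, with a kit other than that in the labels, and 959 of the 2348 windows of that length in the *Cyp4a12a* transcript (40.8%) also occurred in *Cyp4a12b*. The shared part was 41.3% for *Cyp4a12b*, 30.4% for *Cyp4a32*, 19.1% for *Cyp4a10*, 13.9% for *Cyp4a31* and 0% for *Cyp4a14*, over all transcripts of the annotation and both strands. Reads with more than one matching place in the genome were kept out of the gene counts, and made up 18.0% to 28.7% of those tallied in a liver. Values of a single member within the set of *Cyp4a10*, *Cyp4a31* and *Cyp4a32*, or within the pair of *Cyp4a12a* and *Cyp4a12b*, are therefore uncertain, and summed values are given beside them. *Cyp4a14* is free of this limit for exact matches. No exon of another gene overlapped an exon of a member.

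**Figure D1:**
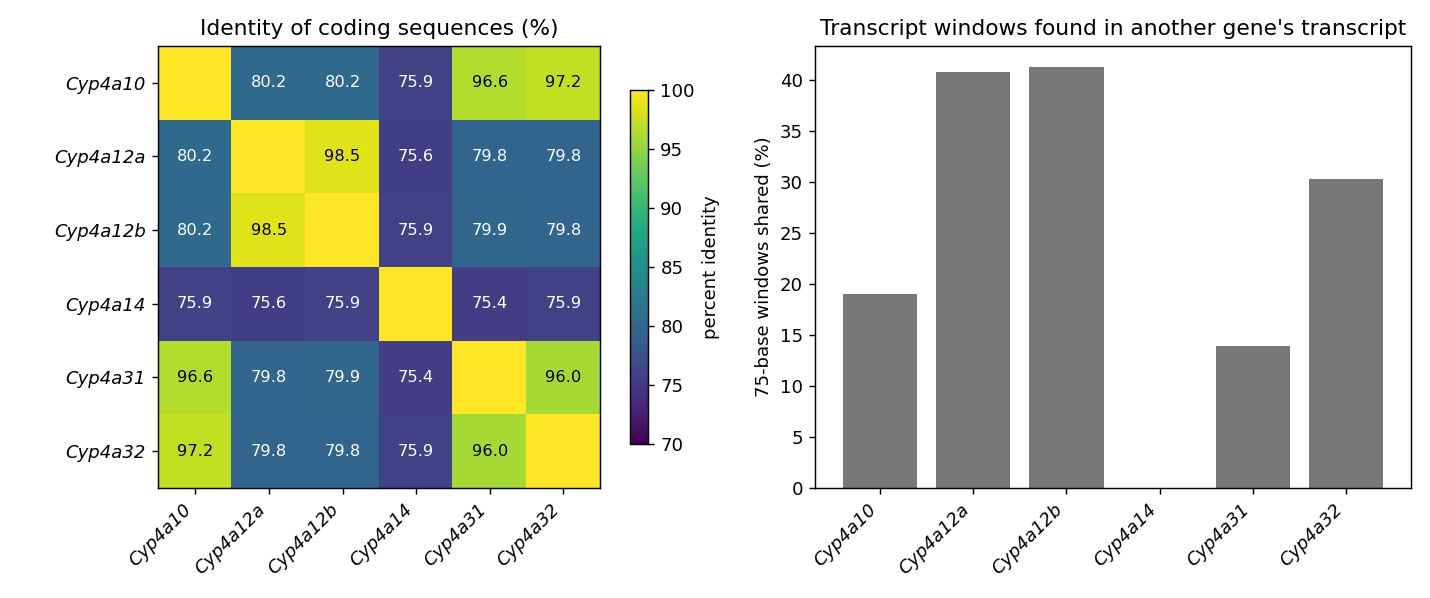
Left, percent identity of the coding sequences for each pair of the 6 members. Right, the percent of 75-base windows of each member's transcript that also occur in a transcript of another gene. *Cyp4a12a* and *Cyp4a12b* share the most windows (40.8% and 41.3%), and *Cyp4a14* shares none.

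Gene counts summed to 14016976 reads in the median liver (lowest 11697049, highest 16827147), of which the 6 members took between 0.0129% and 0.358%. The members had from 86 reads (*Cyp4a31*, lowest liver) to 29606 reads (*Cyp4a14*, highest liver). All 6 passed the filter on low counts in every comparison. Counting error bears most on *Cyp4a31*, which had 86 to 127 reads in the WT livers on WD. Levels are given as CPM, read counts relative to library size with TMM scaling over the 20 livers, as mean ± SD with n = 5 livers. Each comparison was tested with edgeR's quasi-likelihood F test, fitted on all genes with enough reads, and passing means a p under 0.05 after Benjamini-Hochberg adjustment. The deleted gene, *Cideb*, averaged 6.07 ± 1.14 CPM in WT against 0.157 ± 0.167 CPM in KO livers under WD (log2 -5.12, SE 0.43, adjusted p = 0.000766), and 3.04 ± 0.663 against 0.163 ± 0.154 CPM under CDA-HFD (log2 -4.19, SE 0.46, adjusted p = 0.00268). The 7 hepatocyte markers in the table summed to between 31463 and 99628 CPM per liver, and 4 Y-linked genes were expressed in every liver, with *Xist* at no more than 2.12 CPM. One KO library on CDA-HFD, that of liver 5, had a first principal component within the WT range of its diet (-40.7, with the other KO livers from 42.7 to 66.3 and the WT livers from -63.7 to -7.75, 60.0% of the variance), although its *Cideb* level was 0.0586 CPM, and counts of genes that passed between KO and WT livers on that diet are given with and without it, the latter chosen after seeing the data.

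On WD, all 6 members had higher means in KO than in WT livers, and no member passed the threshold over all genes. The summed level of the 6 was 1189.6 ± 392 CPM in WT livers (696 to 1722) and 3413 ± 534 CPM in KO livers (2827 to 3948), without overlap. Of the 15848 genes tested 0.0757% passed in either direction, and 0.0126% passed as higher. With the same edgeR test, all 6 members had an unadjusted p under 0.05, as did 10.7% of all genes. DESeq2 called 4 of the 6, beside 152 of the 16618 genes to which it gave an adjusted p. Without the filter on low counts edgeR called 3, beside 38 of 33547 genes. The median log2 difference was 1.07 over the 6 members and 0.01 over all genes tested.

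The largest difference among the members was that of *Cyp4a14*, a main fibrate-induced omega-hydroxylase. It was at 221, 326, 822, 716 and 424 CPM in WT livers 1 to 5 on WD, and at 2348, 2203, 2738, 1380.3 and 1554 CPM in KO livers 1 to 5. The lowest KO liver was above the highest WT liver. The fitted log2 difference was 2.03 (SE 0.34), a 4.07-fold difference, with an adjusted p of 0.0680 in edgeR's quasi-likelihood test. By p-value it was gene 15 of 15848, and the exact two-sided permutation test gave p = 0.00794, the smallest that 5 livers against 5 can give. Over the 10 fits that left out 1 liver the adjusted p ran from 0.0265 to 0.287, and it passed in 1 of them, that without WT liver 3, which had the highest WT value.

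*Cyp4a10*, its partner in the response to PPARα ligands, was at 221, 413, 622, 541 and 336 CPM in WT livers 1 to 5 on WD and at 817, 952, 875, 939 and 763 CPM in KO livers 1 to 5. These groups did not overlap either. The log2 difference was 1.03 (SE 0.23, adjusted p = 0.162). The exact permutation test again gave 0.00794, which any 2 groups of 5 without overlap give, so it only restates the missing overlap. By that test p was 0.0159 for *Cyp4a12a* and *Cyp4a31*, 0.0873 for *Cyp4a12b* and 0.0952 for *Cyp4a32* on WD. Groups that did not overlap, with KO higher, were found for 2 of the 6 members and for 1.18% of all genes tested.

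*Cyp4a12a*, the male-biased arachidonic acid hydroxylase, was at 142, 201, 140.3, 66.2 and 165 CPM in WT livers 1 to 5 on WD and at 313, 415, 185, 293 and 335 CPM in KO livers. Only KO liver 3 lay within the WT range. Its log2 difference was 1.11 (SE 0.26, adjusted p = 0.20). *Cyp4a12b* ranged from 35.0 to 75.9 CPM in WT and from 60.6 to 153 CPM in KO livers, with a log2 difference of 0.78 (SE 0.27, adjusted p = 0.332). Summed, the pair averaged 206 ± 64.2 CPM (WT) and 416 ± 114 CPM (KO).

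*Cyp4a31*, the least abundant member on WD, was at 6.74, 10.9, 7.77, 8.97 and 8.96 CPM in WT livers 1 to 5 on that diet. In KO livers 1 to 5 it was at 26.2, 27.7, 30.4, 13.5 and 10.6 CPM, and KO liver 5 lay within the WT range. The log2 difference was 1.32 (SE 0.28, adjusted p = 0.140), and with 1 liver left out its adjusted p ran from 0.0327 to 0.386, passing in 1 of 10 fits, that without KO liver 5. *Cyp4a32* differed least, with means of 46.7 ± 11.7 (WT) and 61.8 ± 13.1 CPM (KO) and a log2 difference of 0.40 (SE 0.18, adjusted p = 0.454). When the counts of *Cyp4a10*, *Cyp4a31* and *Cyp4a32* were merged into 1 row, the log2 difference was 0.98 (SE 0.21).

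**Figure D2:**
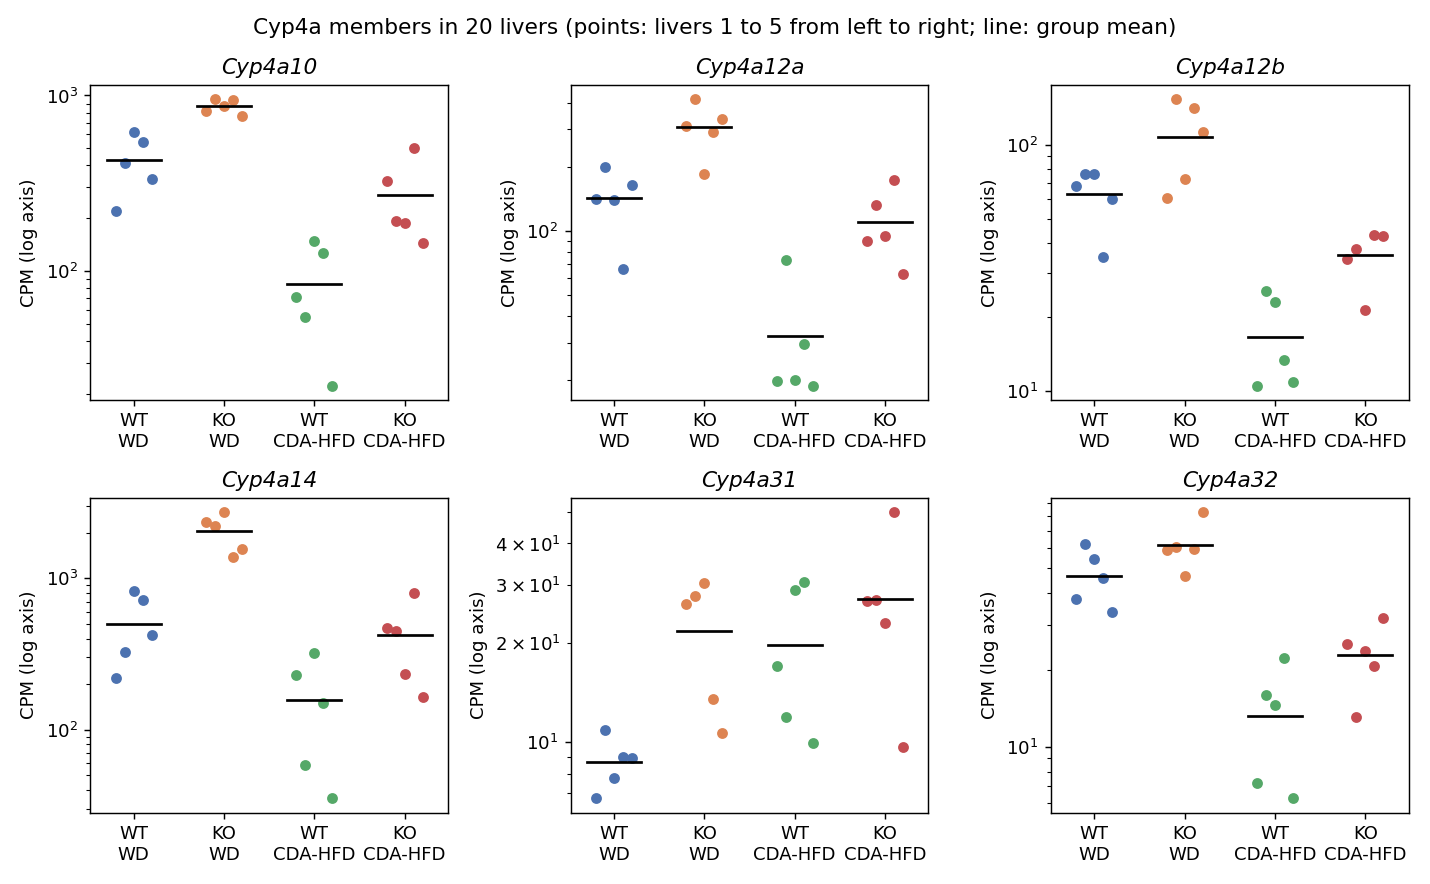
CPM of each member (log axes, with a scale of its own in each panel) in the 5 livers of the 4 groups, with livers 1 to 5 from left to right and a line at the group mean. In the panel of *Cyp4a14*, the KO livers on WD sit between 1380.3 and 2738 CPM, above every WT liver on that diet, and *Cyp4a31* is the member whose lowest group is the WT livers on WD.

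On CDA-HFD, *Cyp4a10*, *Cyp4a12a* and *Cyp4a12b* were higher in KO than in WT livers, and the other 3 members did not pass. The 3 that rose stand against 8.19% of the 17204 genes tested that passed as higher. The summed level of the 6 was 325 ± 167 CPM in WT livers (103 to 553) and 889 ± 439.7 CPM in KO livers (457 to 1587), so the groups overlapped. The groups overlapped for each of the 6 members too, while 4.55% of all genes did not overlap with KO higher. The exact permutation test gave p = 0.0159 for *Cyp4a10* and *Cyp4a12a*, 0.0238 for *Cyp4a12b* and 0.0476 for *Cyp4a14*. It gave 0.0794 for *Cyp4a32* and 0.429 for *Cyp4a31*. The median log2 difference was 1.26 over the members and 0.00 over all genes.

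*Cyp4a12a* had the largest difference on CDA-HFD. It was at 19.7, 73.3, 20.1, 29.6 and 18.9 CPM in WT livers 1 to 5 and at 89.9, 133, 95.3, 174 and 62.8 CPM in KO livers 1 to 5. WT liver 2 was the only WT liver inside the KO range. The log2 difference was 1.77 (SE 0.41, adjusted p = 0.0214 in edgeR's quasi-likelihood test), and it was 2.33 without WT liver 2.

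*Cyp4a12b* was at 10.5, 25.4, 23.0, 13.3 and 10.9 CPM in WT livers 1 to 5 on CDA-HFD and at 34.3, 37.7, 21.3, 42.8 and 42.5 CPM in KO livers 1 to 5. Only KO liver 3 fell within the WT range. The log2 difference was 1.11 (SE 0.28, adjusted p = 0.0279), and for the pair merged it was 1.58 (SE 0.34).

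*Cyp4a10* was at 71.0, 54.8, 148, 127 and 22.3 CPM in WT livers 1 to 5 on CDA-HFD, against 326, 193, 187, 502 and 145 CPM in KO livers 1 to 5. Every KO liver was above 4 of the 5 WT livers. Its log2 difference of 1.67 (SE 0.49) passed with an adjusted p of 0.0420. It did not pass in 8 of the 10 fits that left out 1 liver, the exceptions being those without WT liver 4 and without KO liver 5. Merged with *Cyp4a31* and *Cyp4a32*, the log2 difference was 1.44 (SE 0.43).

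*Cyp4a14* spread widest on CDA-HFD, at 228, 58.9, 319, 150 and 35.2 CPM in WT livers 1 to 5 and at 466, 447, 235, 798 and 165 CPM in KO livers 1 to 5. KO livers 3 and 5 lay within the WT range. The log2 difference was 1.41 (SE 0.59, adjusted p = 0.113). Without KO liver 5 it was 1.61 (adjusted p = 0.0367). *Cyp4a32* differed by 0.80 on the log2 scale (SE 0.34, adjusted p = 0.124), and *Cyp4a31* by 0.46 (SE 0.41, adjusted p = 0.445), with means of 19.7 ± 9.60 (WT) and 27.2 ± 14.5 CPM (KO).

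Single livers moved these calls. Without KO liver 5, 4 members passed as higher (*Cyp4a10*, *Cyp4a12a*, *Cyp4a12b* and *Cyp4a14*), as did 19.6% of 17411 genes, and 7201 genes passed in all against 2664 with it. Without WT liver 5, which had the lowest *Cyp4a10* and *Cyp4a14* values of all 20 livers, 0 members passed by edgeR and the adjusted p-values of *Cyp4a10*, *Cyp4a12a* and *Cyp4a12b* were 0.0677, 0.0562 and 0.0689. *Cyp4a12a* was also lost without WT liver 3 (0.0581) or KO liver 2 (0.0529), and *Cyp4a12b* without WT liver 1 (0.0600) or KO livers 1 (0.0629), 2 (0.0651) or 4 (0.0576). With library size in place of TMM scaling, which moved the median of all genes by -0.19, *Cyp4a12a* alone passed. Its log2 difference was then 1.58.

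**Figure D3:**
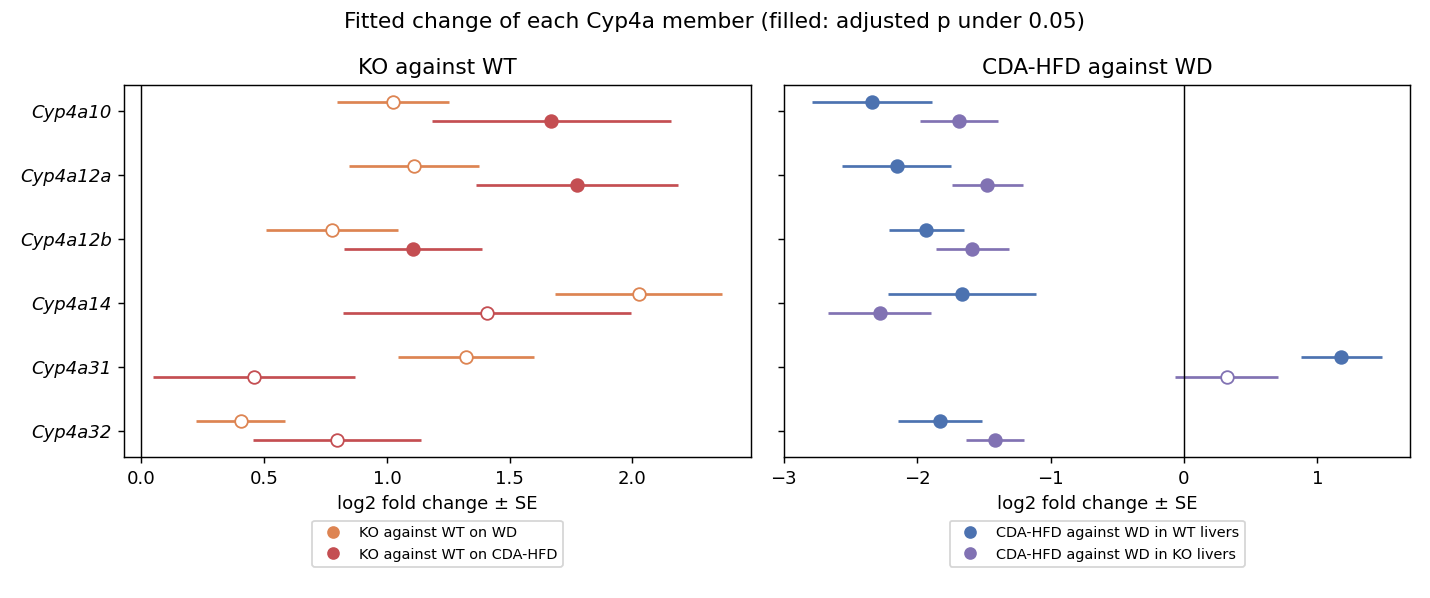
Fitted log2 fold change with its standard error for each member. Left, KO against WT on either diet. Right, CDA-HFD against WD in WT and in KO livers. Filled points passed the threshold, and all 12 values on the left lie above 0 while on the right those of *Cyp4a31* alone do.

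Whether the KO difference depended on the diet was tested as an interaction over the 20 livers. By edgeR 0 of 6 members passed (0.556% of 17804 genes did in either direction), 0 of 6 had an unadjusted p under 0.05 against 15.4% of all genes, and DESeq2 called 0. For *Cyp4a14* the log2 difference on CDA-HFD minus that on WD was -0.62, with an interval of 2 SE on either side from -2.03 to 0.80, and for *Cyp4a10* it was 0.65 (from -0.46 to 1.77). For *Cyp4a31* it was -0.86 (from -1.92 to 0.21). These intervals hold differences of more than 1 log2 unit for all 3 genes, so they are wide beside the differences themselves.

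In WT livers, 5 members were lower on CDA-HFD than on WD and *Cyp4a31* was higher, beside 25.2% of 16726 genes that passed as lower and 25.9% that passed as higher. In KO livers the same 5 members were lower (7.85% of 16387 genes passed as lower, 9.19% as higher), and *Cyp4a31* did not pass. The diet groups did not overlap for 3 members in WT livers (*Cyp4a10*, *Cyp4a12b* and *Cyp4a32*; 18.0% of all genes, lower) and for 5 members in KO livers (7.28% of all genes, lower). The diets were given to separate groups of mice and for different times by the study's methods, so diet, time and cohort cannot be told apart. The diet comparisons also use the same livers as the comparisons of KO with WT.

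*Cyp4a10* fell 5.05-fold from WD to CDA-HFD in WT livers (log2 -2.34, SE 0.45, adjusted p = 0.00117 by edgeR) and 3.22-fold in KO livers (log2 -1.69, SE 0.29, adjusted p = 0.00374). *Cyp4a12a* fell 4.45-fold in WT and 2.78-fold in KO livers, and *Cyp4a12b* 3.81-fold and 3.00-fold. *Cyp4a32* fell 3.55-fold in WT and 2.67-fold in KO livers. *Cyp4a14* fell 3.17-fold in WT livers (log2 -1.67, SE 0.55, adjusted p = 0.0249) and 4.86-fold in KO livers (log2 -2.28, SE 0.38, adjusted p = 0.00316). In WT livers its call was lost without WT WD liver 3 (adjusted p = 0.0577), without WT WD liver 4 (0.0559) and with library size only (0.0744), where the median of all genes moved by 0.42.

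*Cyp4a31* went the other way in WT livers. It rose from 8.66 ± 1.54 CPM on WD to 19.7 ± 9.60 CPM on CDA-HFD (log2 1.18, SE 0.30, adjusted p = 0.00682), while in KO livers it was at 21.7 ± 8.97 and 27.2 ± 14.5 CPM (log2 0.32, SE 0.39, adjusted p = 0.603). On CDA-HFD it was at 17.0, 11.9, 28.9, 30.6 and 9.91 CPM in WT livers 1 to 5, of which liver 5 alone was within the WD range. Its share of the summed CPM of *Cyp4a10*, *Cyp4a31* and *Cyp4a32* was 1.96% ± 0.604 in WT and 2.27% ± 0.914 in KO livers on WD, and 18.0% ± 4.53 and 8.46% ± 2.46 on CDA-HFD. Every CDA-HFD liver was above every WD liver in this share, and the lowest WT liver (14.4%) was above the highest KO liver (11.5%) on CDA-HFD. Merged, the 3 genes changed by -2.04 on the log2 scale in WT livers (SE 0.40) and by -1.57 in KO livers (SE 0.27). How far reads of *Cyp4a10* and *Cyp4a32* enter the count of *Cyp4a31* was not tested.

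Per kilobase of exon, on the scale that allows levels of different genes to be compared, *Cyp4a10* and *Cyp4a14* led in every group. In WT livers on WD, *Cyp4a10* was at 202 ± 75.8 and *Cyp4a14* at 193 ± 98.8 CPM per kb, a difference within their spread. Next was *Cyp4a12a* at 59.0 ± 20.4, *Cyp4a32* at 30.4 ± 7.59, *Cyp4a12b* at 26.3 ± 7.07 and *Cyp4a31* at 3.45 ± 0.613 CPM per kb. *Cyp4a32* and *Cyp4a12b* did not differ beyond their spread in this group. In KO livers on WD, *Cyp4a14* was at 786 ± 218 and *Cyp4a10* at 412 ± 38.1 CPM per kb. The 2 genes did not overlap on this scale, with a lowest liver of 531 against a highest of 451.

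On CDA-HFD the order was again led by *Cyp4a14*, at 60.8 ± 45.4 CPM per kb in WT and 162 ± 95.1 in KO livers. *Cyp4a10* followed at 40.1 ± 24.6 and 128 ± 69.3 CPM per kb, within the spread of *Cyp4a14* in both groups. *Cyp4a12a* came next at 13.3 ± 9.63 and 45.8 ± 17.8 CPM per kb. The remaining 3 genes lay between 6.93 and 8.63 CPM per kb in WT livers and between 10.8 and 14.9 in KO livers, and these differences too were within their spread.

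The order of the low members, and the gap between *Cyp4a14* and *Cyp4a10* in KO livers on WD, rest on how length is counted. Per 1000 windows that occur in no other gene's transcript, *Cyp4a12b* (46.2 ± 12.4 CPM) and *Cyp4a32* (46.1 ± 11.5 CPM) were level in WT livers on WD, and *Cyp4a12a* was at 103 ± 35.5 CPM. In KO livers on WD, *Cyp4a14* (844 ± 234 CPM, lowest liver 570) and *Cyp4a10* (528 ± 48.8 CPM, highest liver 578) then overlapped. The annotated *Cyp4a32* transcript holds 1530 bases, of which 1527 are coding, so almost no untranslated sequence enters its count or its length. How its level would change with untranslated exons counted was not tested.

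**Figure D4:**
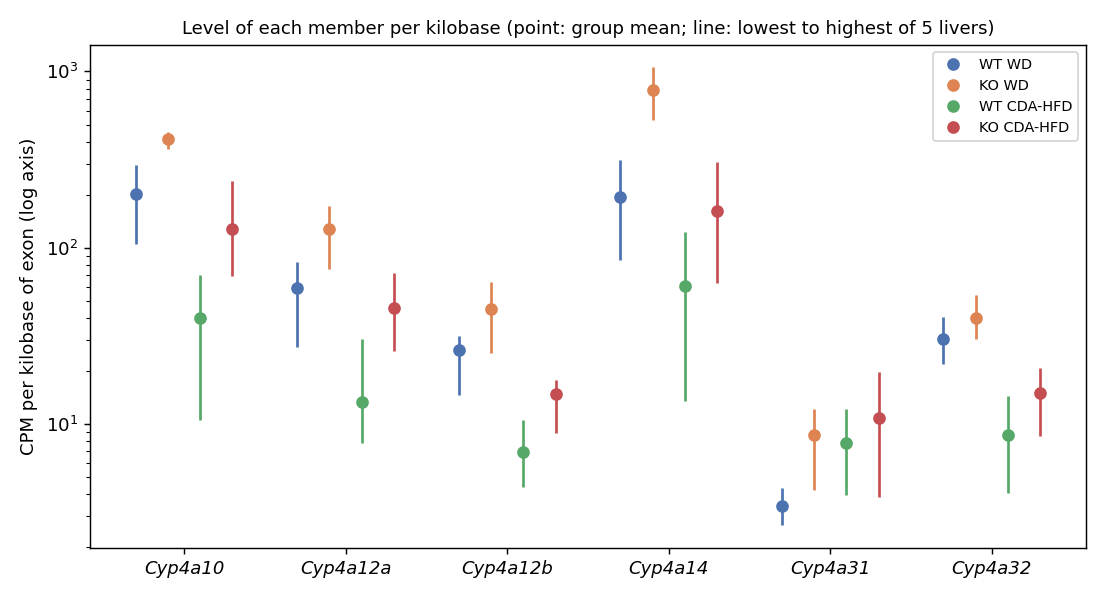
Level of each member in CPM per kilobase of exon (log axis) in the 4 groups, with a point at the group mean and a line from the lowest to the highest of 5 livers. *Cyp4a14* in KO livers on WD is the highest value (786 CPM per kb) and *Cyp4a31* in WT livers on WD the lowest (3.45 CPM per kb).

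The share of the family total was computed for *Cyp4a14* alone and was not tested. *Cyp4a14* made up 40.3% ± 9.27 of the summed CPM of the 6 members in WT and 59.0% ± 8.17 in KO livers on WD. These groups overlapped, with a highest WT liver of 50.7% and a lowest KO liver of 48.8%. The same share under CDA-HFD was 44.2% ± 16.6 in WT and 45.5% ± 7.0 in KO livers. In WT livers on CDA-HFD the share ranged from 24.5% in liver 2, which had the highest *Cyp4a12a* value of its group, to 64.5% in liver 1.

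Within groups, some of the members moved together over single livers. The correlation of log2 CPM after each group's mean was removed was 0.86 between *Cyp4a10* and *Cyp4a14*, 0.71 between *Cyp4a10* and *Cyp4a31*, and 0.74 between *Cyp4a14* and *Cyp4a31* (Pearson's r, 20 livers, a description without a test). Between *Cyp4a12a* and *Cyp4a12b* it was 0.58, whereas between *Cyp4a12a* and *Cyp4a14* it was -0.11. *Cyp4a10* and *Cyp4a31* share 185 windows, and *Cyp4a12a* and *Cyp4a12b* share 959, while *Cyp4a14* shares none with any member. *Cyp4a32* shares 302 windows with *Cyp4a10* and 239 with *Cyp4a31*. The correlation of *Cyp4a32* within groups was 0.45 with *Cyp4a10* and 0.02 with *Cyp4a31*.

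**Figure D5:**
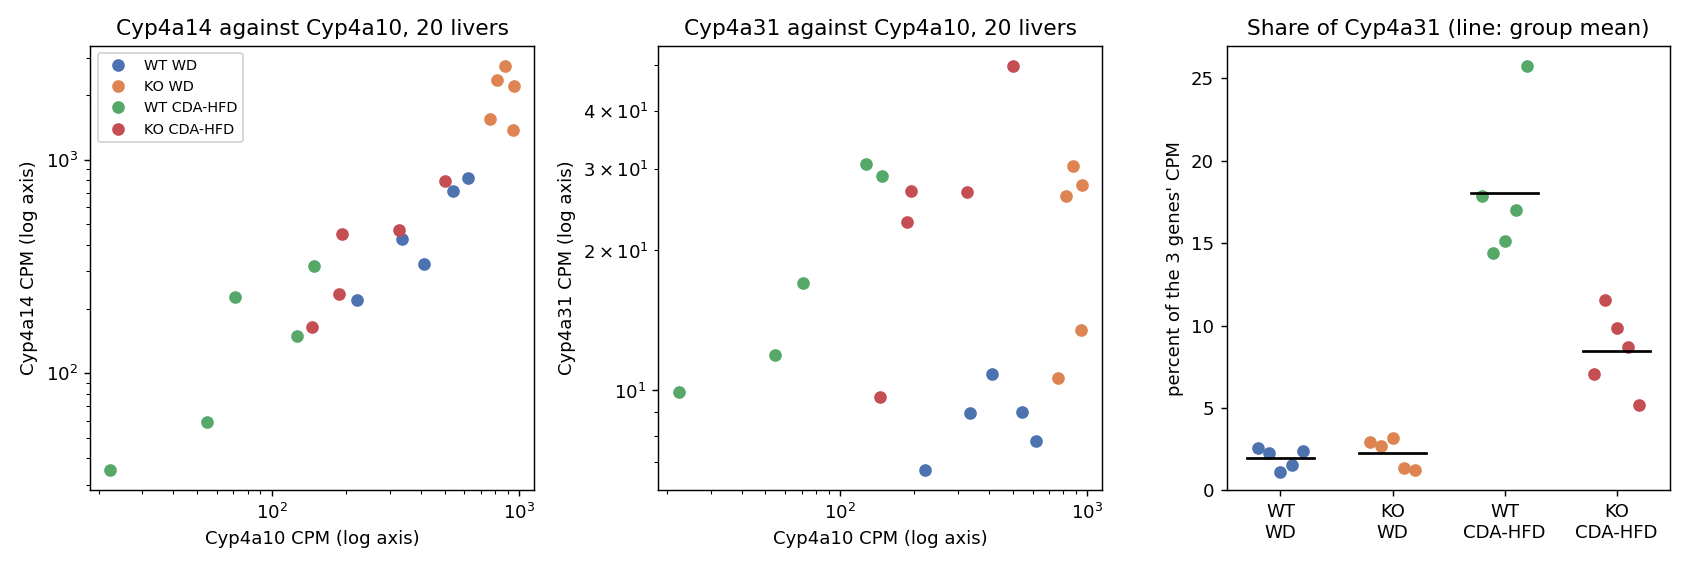
Left and center, CPM of *Cyp4a14* and of *Cyp4a31* against that of *Cyp4a10* in the 20 livers (log axes), colored by group. Right, the percent of the summed CPM of *Cyp4a10*, *Cyp4a31* and *Cyp4a32* that fell on *Cyp4a31*, with a line at the group mean, which is 1.96% and 2.27% on WD and 18.0% and 8.46% on CDA-HFD in WT and KO livers.

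Among 11028 other genes, those whose log2 CPM followed a member most closely over the 20 livers were named by Pearson's r, as a description. All points share the 4 groups, so a gene that differs between diets scores high. For *Cyp4a10* they were *Hacl1* (0.97), an enzyme of peroxisomal alpha-oxidation, *Acot1* (0.96), an acyl-CoA thioesterase, and *Eci2* (0.96), an enoyl-CoA isomerase. For *Cyp4a14* they were *Ehhadh* (0.93), the peroxisomal bifunctional enzyme, *Acot1* (0.92) and *Retsat* (0.91), a retinol saturase. For *Cyp4a12a* they were *Ipo8* (0.92), *Acsl1* (0.92), which activates long-chain fatty acids, and *Mlxipl* (0.91), which codes for ChREBP. For *Cyp4a12b* they were *Btbd2* (0.91), *Cdc14b* (0.90) and *Bco2* (0.89), for *Cyp4a32* *Acad10* (0.96), *Wdr45* (0.93) and *Rdh16* (0.93), and for *Cyp4a31* *Clec4g* (0.80), *Tspan4* (0.79) and *Ipo13* (0.78).

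Within the 10 livers on CDA-HFD, *Ehhadh* and *Acot1* were again among the 3 genes nearest to *Cyp4a14* (r = 0.94 and 0.92, with *Ermard* at 0.92), and *Eci2* (0.96) was among those of *Cyp4a10*, with *Kdm4b* (0.97) and *Ehhadh* (0.96). Among the genes nearest to *Cyp4a12a* were *Etohd2* (0.96) and *Fignl2* (0.96), and to *Cyp4a12b* *Atrnl1* (0.91), *Zfp689* (0.87) and *Miip* (0.86). *Cyp4a31* was followed by *Wdr53* (0.91), *Anpep* (0.90) and *Hsdl2* (0.90), and *Cyp4a32* by *Rapgef4* (0.96), *Eif4ebp3* (0.92) and *Acad10* (0.92).

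The receptor that drives *Cyp4a10* and *Cyp4a14* in liver was measured in the same libraries. *Ppara* averaged 953 ± 162 (WT) and 890.3 ± 142 CPM (KO) on WD (log2 -0.10, SE 0.14, adjusted p = 0.846 by edgeR), and at 342 ± 82.1 and 506 ± 127 CPM on CDA-HFD (log2 0.56, SE 0.22, adjusted p = 0.0977). From WD to CDA-HFD its log2 change was -1.48 in WT livers (SE 0.18, adjusted p = 6.88e-05) and -0.81 in KO livers (SE 0.19, adjusted p = 0.0157). Its partner *Rxra* was at 611 ± 54.1 and 656 ± 43.1 CPM in WT and KO livers on WD and at 418 ± 81.7 and 611 ± 112 CPM on CDA-HFD (log2 0.54 for KO against WT, SE 0.17, adjusted p = 0.0524). Without KO liver 5 the difference between KO and WT livers on CDA-HFD passed for both, at 0.71 for *Ppara* (SE 0.17, adjusted p = 0.00636 by edgeR) and 0.65 for *Rxra* (SE 0.14, adjusted p = 0.00452). Within groups the correlation of *Ppara* with the members was between 0.04 (*Cyp4a12b*) and 0.38 (*Cyp4a12a*). Of 14 genes of PPARα and its partners, none passed on WD by edgeR, and 2 had an unadjusted p under 0.05, as did 10.7% of all genes. On CDA-HFD *Hnf4a*, a hepatocyte nuclear receptor, rose by 0.84 on the log2 scale and *Pparg*, the PPAR of fat cells, fell by 0.59. Of all genes tested there, 8.19% passed as higher and 7.29% as lower. Of the 14, 7 rose and 1 fell without KO liver 5, where 19.6% of all genes passed as higher. Between diets in WT livers 8 of the 14 fell, with *Ppara*, the coactivator *Ppargc1b* (-1.07) and *Pparg* (-0.72) the furthest. In KO livers *Ppargc1b* (-1.0), *Pparg* (-0.94) and *Ppara* fell. Of all genes, 25.2% passed as lower between diets in WT and 7.85% in KO livers.

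Other genes of omega-oxidation and PPARα targets were taken from fixed lists, which share 7 genes with each other. On WD 0 of 28 tested genes of the steps after omega-hydroxylation passed by edgeR (8 had an unadjusted p under 0.05), with a median log2 difference of 0.17. Of 40 PPARα targets 1 passed (19 had an unadjusted p under 0.05), with a median of 0.20. The 1 gene was *Retsat*, at 375 ± 82.1 (WT) and 856 ± 172 CPM (KO) (log2 1.19, SE 0.17, adjusted p = 0.0285). None of 8 other genes of the Cyp4 family passed on WD by edgeR (4 had an unadjusted p under 0.05). Their median was 0.32, beside a median of 0.01 over all genes tested. Of all genes tested on WD, 0.0757% passed in either direction and 10.7% had an unadjusted p under 0.05.

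On CDA-HFD, 10 of 28 genes of the later steps of omega-oxidation rose in KO livers and none fell. Of all genes tested in this comparison, 8.19% passed as higher and 7.29% as lower. Among those that rose were *Acsl1* (log2 1.39) and *Por* (0.89), the reductase that passes electrons to P450s. Of 39 PPARα targets 14 rose, led by *Acot1* (2.32), *Acsl1* (1.39) and the lipid droplet gene *Plin5* (1.04), and the fatty acid transporter *Cd36* fell by 0.89 on the log2 scale. Of 8 other Cyp4 genes, 5 rose, namely *Cyp4f14* (1.30), *Cyp4f15* (0.99), *Cyp4f17* (0.74), *Cyp4v3* (0.66) and *Cyp4f13* (0.62), and 3 did not pass. Without KO liver 5, added after seeing the data, 23 genes of the later steps rose. Then 26 PPARα targets rose and 4 fell, and 6 other Cyp4 genes rose and 2 fell. Of the 17411 genes tested in that fit, 19.6% passed as higher and 7201 passed in either direction.

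Between diets in WT livers, 25 of 28 genes of the later steps were lower on CDA-HFD and none higher, with the largest falls in *Acot3* (log2 -2.60) and *Acaa1b* (-2.46). The share of all genes that passed as lower was 25.2%, and that as higher was 25.9%. Of 40 PPARα targets 35 fell and 2 rose (*Ucp2*, 1.30, and *Slc27a1*, 0.81). Among them *Cidea*, a relative of *Cideb*, went from 74.8 ± 34.5 to 0.0597 ± 0.0450 CPM and *Acot1* from 40.4 ± 15.4 to 3.38 ± 1.72 CPM. Of 8 other Cyp4 genes 6 fell, with *Cyp4f15* (-1.58), *Cyp4f17* (-1.50) and *Cyp4b1* (-0.96) the furthest, and *Cyp4f18* (1.80) and *Cyp4f16* (1.12) rose. In KO livers 14 of 28 genes of the later steps fell, with *Acaa1b* (-2.29), *Acot3* (-1.87) and *Ehhadh* (-1.60) the furthest, beside 7.85% of all genes that passed as lower. Of 40 PPARα targets 24 fell, among them *Acaa1b* and *Acot1* (-2.19), with *Cidea* going from 42.0 ± 35.1 to 0.0854 ± 0.0985 CPM, and *Ucp2* rose (1.25). Of 8 other Cyp4 genes *Cyp4f17* (-1.11) and *Cyp4f15* (-0.93) fell and *Cyp4f18* rose (1.26). In the interaction no gene of these lists passed by edgeR, while 9 of 28, 12 of 40 and 3 of 8 had an unadjusted p under 0.05, beside 15.4% of all genes.

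Markers of other liver cells moved with the same comparisons. Of all genes tested between KO and WT livers on CDA-HFD, 7.29% passed as lower and 8.19% as higher, and 35.3% had an unadjusted p under 0.05. On CDA-HFD, 5 of 14 macrophage markers (*Adgre1*, *Cd68*, *Csf1r*, *Trem2* and *Cd9*) and 2 of 13 stellate cell markers (*Acta2* and *Timp1*) were lower in KO livers, and none of 7 cholangiocyte, 10 endothelial, 10 lymphocyte or 7 hepatocyte markers passed by edgeR, of which 2, 5, 0 and 2 had an unadjusted p under 0.05. Without KO liver 5, 9 macrophage, 10 stellate cell, 6 cholangiocyte and 1 lymphocyte markers were lower. In that fit 7 endothelial, 3 hepatocyte and 2 macrophage markers were higher. Of the 17411 genes tested in it, 19.6% passed as higher and 7201 passed in either direction. The macrophage markers summed to between 2504 and 4894 CPM in WT and between 785 and 3081 CPM in KO livers, the highest being KO liver 5. Stellate cell markers summed to between 2628 and 4306 CPM and between 1494 and 4430.1 CPM, and cholangiocyte markers to between 382 and 817 CPM and between 84.6 and 655 CPM, again with KO liver 5 the highest. Hepatocyte markers summed to between 31463 and 69136 CPM in WT and between 32623 and 99628 CPM in KO livers, and in KO liver 5 to 32623. No marker was at 0 in all livers of a group. In whole liver, fewer cells of a type and less RNA per cell cannot be told apart, and the part of cell makeup in the Cyp4a values was not tested.

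Between diets the same markers moved too. Of all genes tested, 25.9% passed as higher and 25.2% as lower on CDA-HFD in WT livers. In KO livers 9.19% passed as higher and 7.85% as lower, and 33.3% had an unadjusted p under 0.05. In WT livers on CDA-HFD, 8 of 14 macrophage, 12 of 13 stellate cell, 7 of 7 cholangiocyte and 6 of 9 lymphocyte markers rose, and 4 of 7 hepatocyte, 7 of 10 endothelial and 2 macrophage markers (*Timd4* and *Clec4f*) fell, while 1 hepatocyte marker, *Ahsg*, rose. In KO livers 6 of 14 macrophage, 5 of 13 stellate cell, 4 of 7 cholangiocyte and 5 of 7 lymphocyte markers rose on CDA-HFD, none fell, and by edgeR none of 7 hepatocyte or 10 endothelial markers passed (1 and 2 had an unadjusted p under 0.05). On WD none of these markers passed between KO and WT livers by edgeR. Of them 2 macrophage, 2 stellate cell and 1 endothelial marker had an unadjusted p under 0.05, as did 10.7% of all genes. Macrophage markers then summed to between 492 and 1624 CPM in WT and between 419 and 787 CPM in KO livers, and hepatocyte markers to between 57140.2 and 97120.4 CPM and between 66838 and 83432 CPM. These ranges overlapped on WD, with a median log2 difference of -0.52 over the macrophage and 0.19 over the hepatocyte markers. The part of cell makeup in the Cyp4a values on WD was not tested.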

How the data were processed

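RNA-seq of 20 livers was analysed from the deposited table of raw read counts per gene symbol, in which the authors had applied no normalization. The form of the table is that of htseq-count, and 5 entries that tally unassigned reads (50.3% to 57.0% of all reads tallied per liver) were left out of library sizes and tests. The submitters' processing notes name mm10, and the aligner and counter are not given in the sources used here. The labels name a directional kit and the study's methods another, so the strand setting is unknown. Groups came from the sample labels. The labels do not say how the livers of a group were assigned to mice or cages, so p-values measure the spread between these libraries. The labels do not say whether their numbers pair the livers. The r of residuals between same-numbered WT and KO livers ran from -0.272 to 0.288 on WD and from -0.372 to 0.347 on CDA-HFD. Livers of unlike number were not compared, so these values cannot decide whether the livers were paired. No 2 libraries of a group were copies (40 pairs differed by 6.24 to 110.2 times the sampling noise).

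Each comparison was fitted on its 10 livers, and the interaction on all 20, in R 4.3.3 with edgeR 4.0.16 (filterByExpr, TMM, quasi-likelihood F test, Benjamini-Hochberg adjustment over all genes tested, threshold 0.05). SE is the absolute log2 fold change divided by the square root of F. Alternatives were DESeq2 1.42.0, RLE scaling, library size only, no filter, at least 10 counts in every library, all 20 livers in one fit, a replicate block, merged paralogs and each liver left out. An exact permutation test, two-sided, was added for single genes. The test was checked on simulated counts. Per-liver CPM used TMM factors over the 20 livers, and correlations log2 CPM with a prior count of 2.

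Sequences and lengths came from GENCODE M21 transcripts (GRCm38), read with Biopython 1.88, taking for each member the transcript with the longest coding sequence. RefSeq GRCm38.p6 promoter windows of 300 bases were given for 1 of the 6 members, *Cyp4a32*. It held no AGGTCANAGGTCA (the DR1 element to which PPARα binds) and no AGGTCA on either strand, beside 0.0396% and 16.3% of all 32851 windows. Figures were drawn with matplotlib 3.10.9.

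The members, lists and tests were chosen with earlier results of these data known. The genes named were the 6 members, *Ppara*, *Rxra* and *Cideb*, those of each fixed list that passed where at most 6 did and otherwise the 3 largest rises and falls, and the 3 genes most correlated with each member (mean log2 CPM of at least 2, without predicted genes). A few genes that this rule names are not reported here.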

Additional observations from a re-analysis of the deposited data

Results flagged for a closer look

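Of 48 groups of 5 livers screened, 3 held a liver whose distance from the nearest other liver was above Dixon's critical value, where chance gives about 2.4. The first is *Cyp4a12a* in WT liver 2 on CDA-HFD, at 73.3 CPM with the other 4 livers between 18.9 and 29.6 CPM. The second is the sum of *Cyp4a12a* and *Cyp4a12b* in the same liver, at 98.7 CPM with the others between 29.7 and 43.1 CPM, which is largely the same reads. The third is *Ppara* in KO liver 5 on CDA-HFD, at 286.5 CPM with the other 4 KO livers between 529 and 607 CPM. Neither *Cyp4a10* nor *Cyp4a14* was set apart in this way in either liver.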

How the results depend on the processing

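The 6 members in 5 comparisons gave 30 log2 differences. All 30 kept their direction and side of the threshold under RLE scaling, at least 10 counts in every library and a replicate block, 27 of 30 did with library size only and with no filter, 25 of 30 with DESeq2, and 23 of 24 with all 20 livers in one fit. Merging the close paralogs left 25 of 30 as they were, gained the KO difference on CDA-HFD for *Cyp4a31* and *Cyp4a32* (log2 1.44 for the merged row, adjusted p = 0.0463 by edgeR), and turned the sign for *Cyp4a31*, by construction since the sum is mostly *Cyp4a10*, to -2.04 between diets in WT livers, to -1.57 in KO livers and to 0.47 in the interaction.

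For KO against WT on WD, 12 genes passed, and 38 with no filter, 152 with DESeq2, 26 with all 20 livers in one fit and 2 with a replicate block. The members that passed numbered 0, and 3 with no filter and 4 with DESeq2. Leaving out 1 liver gave 1 to 33 genes (33 without WT WD liver 3, 1 without WT WD liver 5) and 0 to 1 members. On CDA-HFD 2664 genes passed (1409 higher, 1255 lower), and 1709 with library size only (517 higher, 1192 lower), 4036 with DESeq2 and 4170.0 with all 20 livers. Of the 3 members 1 passed with library size only. With 1 liver left out, the genes numbered between 709 (KO liver 1 out) and 7201 (KO liver 5 out), and the members between 0 and 4. Between diets in KO livers 2792 genes passed (1506 higher, 1286 lower), and 4476 with all 20 livers and 3924 with library size only (3371 higher, 553 lower). Leaving out 1 liver gave 1568 to 2881 genes and a *Cyp4a31* log2 difference of -0.0065 (without KO CDA-HFD liver 4) to 0.53. In WT livers 8542 passed (4335 higher, 4207 lower), and 10690.0 with library size only (9120.0 higher, 1570.0 lower). For the interaction 99 genes passed (59 higher, 40 lower), and 44 with library size only (18 higher, 26 lower), 52 with no filter, 405 with DESeq2, 8 with a replicate block, and 35 to 2138 without 1 liver (2138 without KO CDA-HFD liver 5). Library size only moved the median log2 value of all genes by -0.19 on CDA-HFD, 0.42 and 0.25 between diets in WT and KO livers, and -0.15 in the interaction. The cause of these differences was not tested. Whether the replicate numbers pair the livers is not known, and the replicate block changed no call on a member.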

Other observations

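*Cyp4a12a* is one of the male-biased genes of mouse liver, so lists of genes with a known sex bias and of the hormone pathways behind it were read beside it. On WD none of 15 male-biased, 12 female-biased or 11 growth hormone and androgen signaling genes passed between KO and WT livers by edgeR. Of each list 2 had an unadjusted p under 0.05, as did 10.7% of all genes. On CDA-HFD, 5 of 14 male-biased genes rose in KO livers, namely *Elovl3* (log2 2.07), a fatty acid elongase, *Mup21* (2.06), a major urinary protein, *Cyp2d9* (1.62), *C6* (0.94), a complement component, and *Gstp1* (0.56). Of 11 female-biased genes, *Cyp2b9* alone rose (2.65). Of all genes tested in this comparison, 8.19% passed as higher and 7.29% as lower. Among the 11 signaling genes, *Onecut1* (1.61), *Igfals* (1.54) and *Cish* (1.48), a feedback inhibitor of cytokine receptors, rose, and *Jak2* fell by 0.36 on the log2 scale. When KO liver 5 was left out, 11 of 15 male-biased and 4 of 11 female-biased genes rose, beside 19.6% of all genes. Of the signaling genes 6 then rose and 2 fell. Between diets in WT livers, 7 of 14 male-biased genes fell, with *Elovl3* (-3.90), *Cyp2d9* (-2.59) and *Slco1a1* (-1.93) the furthest. Of 12 female-biased genes 5 fell as well, namely *Cyp2b10* (from 10.4 ± 9.29 to 0.0340 ± 0.0318 CPM), *Cyp17a1* (log2 -3.36), *Cyp2b9* (-2.21), *Cyp2b13* (-1.90) and *Hao2* (-1.64), and *Cyp39a1* rose (1.09). All genes tested passed as lower at a share of 25.2%.

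Of 12 listed neighbors of the cluster on chromosome 4, 7 were tested on WD and 8 on CDA-HFD, and none passed between KO and WT livers by edgeR. On either diet 1 had an unadjusted p under 0.05, beside 10.7% of all genes on WD and 35.3% on CDA-HFD. The median log2 difference of the neighbors was 0.03 on WD and 0.00 on CDA-HFD. With KO liver 5 left out, 2 of the 8 passed as higher and 1 as lower on CDA-HFD, beside 19.6% of all genes as higher. Of the other Cyp4a entries of the table, *Cyp4a29* had at most 1 read and *Cyp4a30b* at most 2 reads in any liver. The pseudogene *Cyp4a28-ps* had between 0.533 and 2.20 CPM on WD in WT livers and at most 0.350 CPM in any liver on CDA-HFD.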
